A study of Bos taurus with 57 samples.

Results

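The genes described are 200 of the 24616 listed in the counts, all of them more abundant in both the arcuate nucleus (ARC) and the anterior pituitary than in the testes of bull calves on a high plane of nutrition. They were chosen by their CPM, the number of reads on a gene for every 1000000 reads counted in its library. For each gene the mean CPM of the high plane libraries was taken in each tissue and 0.5 was added. The smaller of the ARC and pituitary values was then divided by the testes value, among the 22394 genes whose ARC and pituitary values lay within 4-fold of each other. The 200 largest ratios were kept, with ENSBTAG00000018948 left out of the ranking. The ratios of the kept genes ran from 7.81 to 308.4 with a median of 12.97. The last 3 inside had ratios of 7.85, 7.84 and 7.81, and the next 3 outside had 7.79, 7.78 and 7.77. All levels in high plane libraries are therefore a description of what was selected, and tests between tissues were made in the low plane libraries, which came from other calves.

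The arcuate nucleus lies at the base of the hypothalamus, where its neurons read metabolic hormones and nutrients and act on the hypothalamic neurons that drive the pituitary. The anterior pituitary holds endocrine cells, among them the gonadotrophs that secrete LH and FSH, and these hormones act on the Leydig and Sertoli cells of the testes. Neurons and pituitary endocrine cells share electrical excitability and the release of stored peptides through calcium-triggered exocytosis, for which the somatic cells of the testis are not known. The counts list genes by Ensembl identifier and do not pair identifiers with names, so the role of a gene named below is not given and the labelled tissues were not checked against named marker genes.

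The libraries came from male Holstein-Friesian calves on 1 of 2 diets, with no genetic change and no drug in either group. Overall growth was 1.08 kg per day on the high plane and 0.5 kg per day on the low plane, as the labels give it. All calves were fed milk replacer and concentrate, were weaned by the same criterion and were killed at 126 days of age on average. High plane libraries numbered 10 from the ARC, 9 from the anterior pituitary and 10 from the testes, and low plane libraries 10, 10 and 8. Each was a single-end mRNA library of dissected tissue. The ARC samples were wedges cut on either side of the third ventricle and the testes samples were pieces of parenchyma, so each library mixes cell types. A lower level can mean fewer cells of a type or less RNA per cell, and bulk libraries do not tell these apart. Total counts ran from 898979 reads in the high plane ARC library C22 to 32009433. A count of 0 in a testes library allows up to 0.115 to 0.349 CPM, taken as 3 counts of the library's total and covering counting error only.

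Some libraries stood apart from the rest of their group. Their position was measured with a score for each library. This library score averages the log2 CPM of 200 other genes, picked from the main axis of variation in the other 2 tissues. The score was below 2 in 13 libraries and lay between 3.41 and 5.10 in the remaining ones. The low scores were those of 3 of 9 high plane pituitary libraries (A57, A51 and A18), 2 of 10 low plane pituitary libraries (A47 and A10), 2 of 10 low plane ARC libraries (C6 and C33), 1 of 10 high plane testes libraries (B42) and 5 of 8 low plane testes libraries (B21, B15, B2, B26 and B20). No high plane ARC library had a low score. The labels give no batch or RNA quality for single libraries, and what sets these libraries apart was not tested. Results are given with and without them. The high plane testes library labelled A48 has a header reading B48. Reads on the 200 genes made up 0.0537% of it, inside the range of the other high plane testes libraries.

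In the low plane calves the chosen genes kept their place in both tissues. Reads on the 200 genes made up 1.83% ± 0.326 (SD, n = 10) of an ARC library, 1.60% ± 0.165 (SD, n = 10) of a pituitary library and 0.0691% ± 0.0106 (SD, n = 8) of a testes library. The ranges were 1.27 to 2.18%, 1.24 to 1.80% and 0.0515 to 0.0870%, so every ARC and pituitary library lay far above every testes library. In the high plane libraries used for the choice the shares were 1.80% ± 0.341 (n = 10), 1.53% ± 0.208 (n = 9) and 0.0521% ± 0.00748 (n = 10). Without the libraries of low score the low plane shares were 1.95% (n = 8), 1.64% (n = 8) and 0.0670% (n = 3). A few genes carried much of this, since the 10 most abundant members held 32.2% of the members' summed mean CPM in the low plane ARC and 39.8% in the pituitary.

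The mean CPM of a single member in low plane calves ran from 4.11 to 1124 in the ARC with a median of 47.4, and from 2.19 to 2087 in the pituitary with a median of 40.2. In the testes it ran from 0.0372 to 57.01 with a median of 1.76, and 69 of the 200 genes were under 1 CPM. No member was at 0 in every library of a group, while 32 were at 0 in at least 1 low plane testes library. CPM is not corrected for gene length, so these levels compare tissues for a gene and not genes with each other. The ratio that served the choice ran from 2.92 to 202 in the low plane calves with a median of 12.4. It was lower than in the high plane calves for 120 genes and higher for 80. Had the genes been chosen in the low plane libraries instead, 148 of the 200 would have been the same.

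Tests between tissues treat the libraries as independent, although the study took all 3 tissues from the same calves, because the labels tie no library to a calf. All 200 genes passed the edgeR filter on low counts in the low plane libraries. That filter ran over all 3 tissues, so a gene could pass on its ARC or pituitary counts alone. In a filter over the testes libraries only, 51 of the 200 did not pass. These entered through the tissues in which they were chosen to be high, and they are kept in the counts that follow. All 200 were higher in the ARC than in the testes at a false discovery rate (FDR) below 0.05 in edgeR's quasi-likelihood test. Of all 15808 genes tested, 30.4% were called higher in the ARC. The log2 fold changes of the members ran from 2.25 to 9.41 with a median of 4.81, against 0.02 for all genes, and the largest member FDR was 0.000277. The pituitary gave the same count, with 200 members called higher than in the testes where 25.1% of all genes were. There the log2 fold changes ran from 2.16 to 9.35 with a median of 4.78, against -0.03 for all genes, and the largest FDR was 0.00042. Without the libraries of low score all 200 were again called higher in each tissue, where 36.1% and 32.9% of all genes were.

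Library by library the separation was less complete. These counts too include the 51 members that did not pass the filter within the testes. For 156 members every low plane ARC library lay above every low plane testes library, against 10.0% of all genes tested. In the pituitary this held for 181 members, against 7.31% of all genes. Both held for 152 members, against 3.66% of all genes. Without the libraries of low score 197 members had every ARC and every pituitary library above every testes library, against 11.8% of all genes. That leaves 8, 8 and 3 libraries, and the share of all genes that separated in full rose as well.

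**Figure D1:**
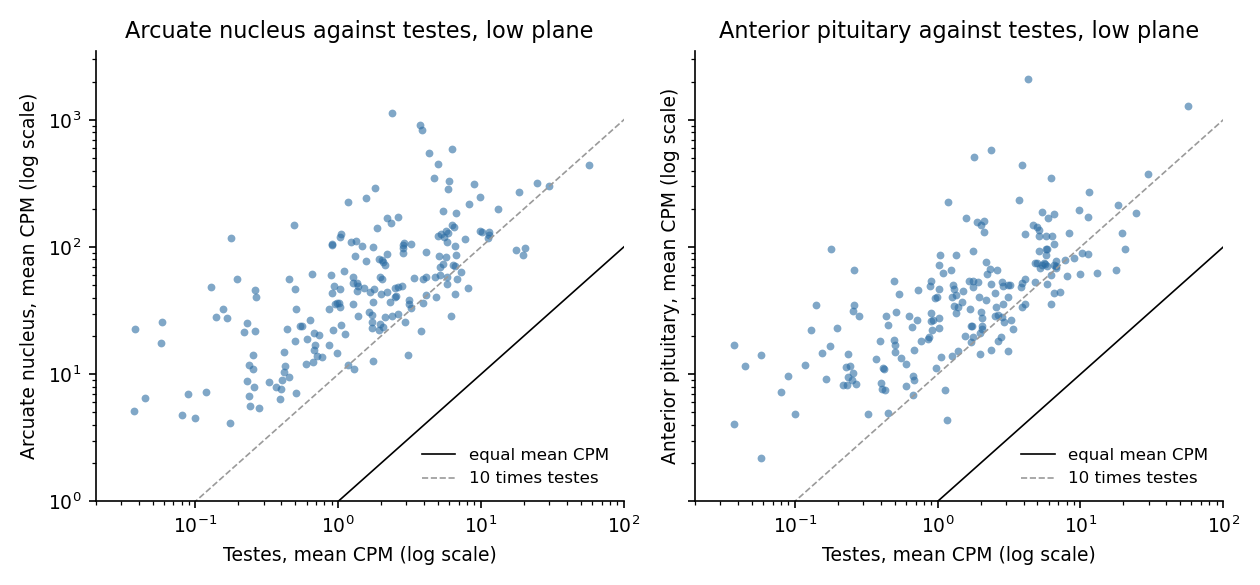
Mean CPM of each of the 200 genes in low plane calves, in the arcuate nucleus (left) and the anterior pituitary (right) against the testes, on log axes. Each point is 1 gene, the solid line marks equal mean CPM and the dashed line 10 times the testes value; every point lies above the solid line, and medians were 47.4 and 40.2 CPM against 1.76 CPM in the testes.

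The gene with the largest ratio, ENSBTAG00000012182, had 636 to 1659.8 CPM in the low plane ARC libraries with a median of 1209. In the low plane pituitary it had 501 to 643 CPM with a median of 593. In the testes of these calves it had 0.766 to 6.52 CPM with a median of 1.56. Every ARC and pituitary library of these calves lay above every testes library, while the lowest ARC value lay below the highest pituitary value. The low plane libraries of low score lay within the range of the other low plane libraries in both tissues.

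The third gene by ratio, ENSBTAG00000011782, was the most abundant member in the pituitary. It had 296 to 849.5 CPM in the low plane ARC with a median of 511. In the low plane pituitary it had 1373 to 2706 CPM with a median of 2133, and in the testes 0.985 to 9.32 CPM with a median of 3.85. Every pituitary library lay above every ARC library, and every ARC library above every testes library. The log2 fold change over the testes was 7.14 (SE 0.42) in the ARC and 9.18 (SE 0.46) in the pituitary.

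ENSBTAG00000013798, second by ratio, varied far more within a tissue. Its low plane ARC values ran from 4.96 to 428 CPM with a median of 355, and its low plane pituitary values from 49.6 to 688 CPM with a median of 609. In the testes it had 0 to 3.49 CPM with a median of 1.80. The low ends belonged to the libraries of low score. Without them the ARC libraries had 252 to 428 CPM and the pituitary libraries 536 to 688 CPM.

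ENSBTAG00000010897, the next by ratio after these, was at the lower end of counting in the testes, at 0 in 3 of the 8 low plane libraries and at most 0.582 CPM. Its low plane values were 9.69 to 200.3 CPM in the ARC with a median of 95.4, and 32.5 to 138 CPM in the pituitary with a median of 104. Every ARC and pituitary library lay above every testes library. The upper ends of the fold change ranges given above are this gene's, and they rest on few testes reads.

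By the smallest p-value in the low plane calves, the clearest gene in each tissue was ENSBTAG00000007719, which ranked 71 by ratio. It had 47.98 to 126 CPM in the ARC with a median of 107, 92.8 to 119 CPM in the pituitary with a median of 103, and 5.33 to 7.70 CPM in the testes with a median of 6.61. The spread within each tissue was small beside the gap, and the log2 fold changes over the testes were 4.07 (SE 0.13, FDR 6.581e-20 by edgeR) in the ARC and 4.28 (SE 0.13, FDR 8.746e-20) in the pituitary. Its ARC and pituitary levels were alike, at 101 ± 22.1 CPM (SD, n = 10) and 106 ± 8.36 CPM (SD, n = 10), and differed by -0.21 on the log2 scale (SE 0.10, FDR 0.08908 by edgeR).

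The next, ENSBTAG00000011598, had 28.8 to 79.0 CPM in the low plane ARC with a median of 58.5. It had 11.6 to 33.2 CPM in the pituitary with a median of 22.6, and 0.109 to 0.345 CPM in the testes with a median of 0.192. The testes range lay below both others, with log2 fold changes of 8.17 (SE 0.27, FDR 1.015e-19 by edgeR) in the ARC and 7.02 (SE 0.26, FDR 1.701e-18) in the pituitary.

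Within the 4-fold limit the genes leaned to either tissue. In the high plane libraries 133 members were higher in the ARC and 67 in the pituitary, and 132 differed by less than 2-fold. In the low plane libraries the numbers were 123, 77 and 136. In these calves 192 members stayed within 4-fold, with log2 ratios of ARC to pituitary from -2.49 to 3.29. Across the 200 genes the log2 ratios of the 2 diets correlated at 0.866, which describes genes measured in the same libraries and carries no test.

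Tested in the low plane calves with edgeR, 56 members were higher in the ARC, where 27.2% of all genes were, and 30 were higher in the pituitary, where 23.5% of all genes were. The remaining 114 did not pass the threshold. The share of members called was near that of all genes for the ARC direction and below it for the pituitary direction. The 4-fold limit of the choice held the tissues together in the high plane calves, so this comparison is tied to the choice. The median log2 fold change was 0.11 with a range from -2.73 to 3.41. For 17 members every ARC library lay above every pituitary library, against 9.47% of all genes, and for 6 members the reverse held, against 5.16%. Without the libraries of low score 81 members were higher in the ARC and 59 in the pituitary, against 36.8% and 36.7% of all genes.

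The members leaning most to the pituitary were ENSBTAG00000019947 and ENSBTAG00000006902. ENSBTAG00000019947 had 2.88 to 47.8 CPM in the low plane ARC with a median of 30.1, and 48.5 to 207 CPM in the pituitary with a median of 180.3. The tissues did not overlap, and the log2 fold change of ARC over pituitary was -2.73 (SE 0.33, FDR 5.18e-08 by edgeR). ENSBTAG00000006902 had 0.461 to 9.45 CPM in the ARC with a median of 5.81, and 4.70 to 37.9 CPM in the pituitary with a median of 33.6. Its groups overlapped through the libraries of low score, without which the ARC had 3.80 to 9.45 CPM and the pituitary 30.8 to 37.9 CPM. The log2 fold change was -2.61 (SE 0.44, FDR 1.03e-05 by edgeR).

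Leaning most to the ARC were ENSBTAG00000047486 and ENSBTAG00000001516, both of them variable. ENSBTAG00000047486 had 1.55 to 65.3 CPM in the low plane ARC with a median of 17.98, and 0.392 to 6.08 CPM in the pituitary with a median of 1.75. The ranges overlapped, with a log2 fold change of 3.41 (SE 0.55, FDR 6.534e-06 by edgeR). ENSBTAG00000001516 had 2.14 to 135 CPM in the ARC with a median of 33.5, and 0.381 to 24.1 CPM in the pituitary with a median of 5.57. Here too the ranges overlapped, with a log2 fold change of 2.19 (SE 0.57, FDR 0.001967 by edgeR).

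**Figure D2:**
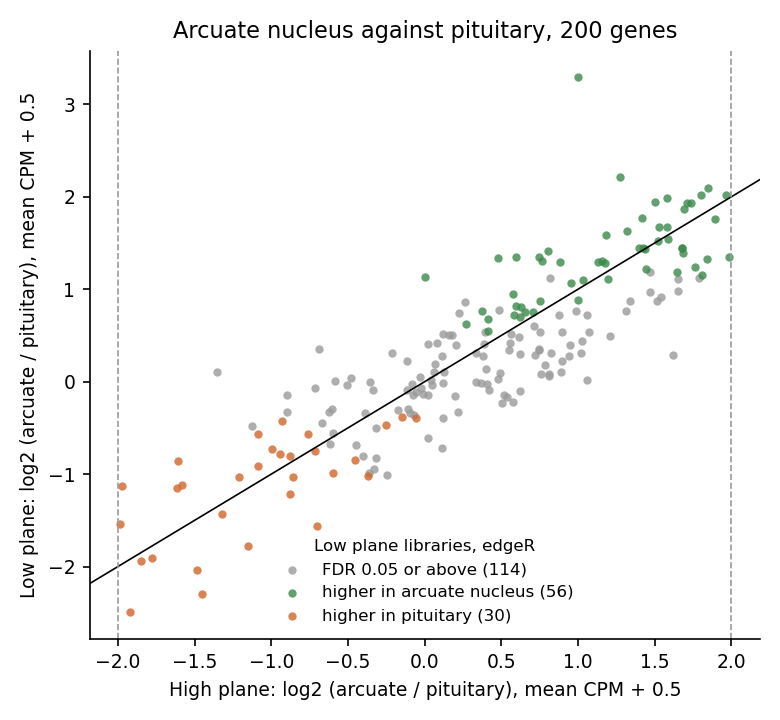
Log2 ratio of arcuate nucleus to pituitary (mean CPM + 0.5) of each of the 200 genes, in high plane calves (x axis) and low plane calves (y axis). Points are genes coloured by the edgeR test in low plane calves (56 higher in the ARC, 30 higher in the pituitary, 114 not called), the solid line marks equal ratios, and the dashed lines mark the 4-fold limit of the choice; 192 of the 200 stayed within that limit in low plane calves.

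The members differed in how they followed the library score. Each gene's slope on the score was fitted in edgeR with diet in the model, and no member was among the genes of the score. In the ARC 88 members rose with the score and 46 fell, where 41% and 35.3% of all genes did. In the pituitary 99 rose and 71 fell, where 44.9% and 42.3% of all genes did. Among the 149 members tested in the testes 56 rose and 38 fell, where 40.3% and 41.3% of all genes did. Rises and falls taken as 1 count, the members' share was below that of all genes in each tissue. When libraries were scaled by their totals, 97 members rose and 19 fell in the ARC, where 46.2% and 23.5% of all genes did. That scaling moved the median slope of all genes from 0.02 to 0.09 and that of the members from 0.08 to 0.15.

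Members called in both the ARC and the pituitary had the same direction in each. Of the 200 genes, 85 rose with the score in both tissues, where 40% of all genes did, and 44 fell in both, where 35.3% did. None of the 200 was called in opposite directions (0), against 0.0289% of all genes, so a shared direction was found for nearly all genes called and not for the members alone. Counting slopes that were not called, 17 members had opposite signs in the tissues. The slopes ran from -0.30 to 1.20 in the ARC and from -0.24 to 1.15 in the pituitary, as log2 change per unit of score. The score of each of these tissues draws on genes picked in part from the other. The main axes of the tissues were also given the same sign by the correlation of their slopes. Agreement in direction was thus favoured by how the score was built, so the shared direction is a description.

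**Figure D3:**
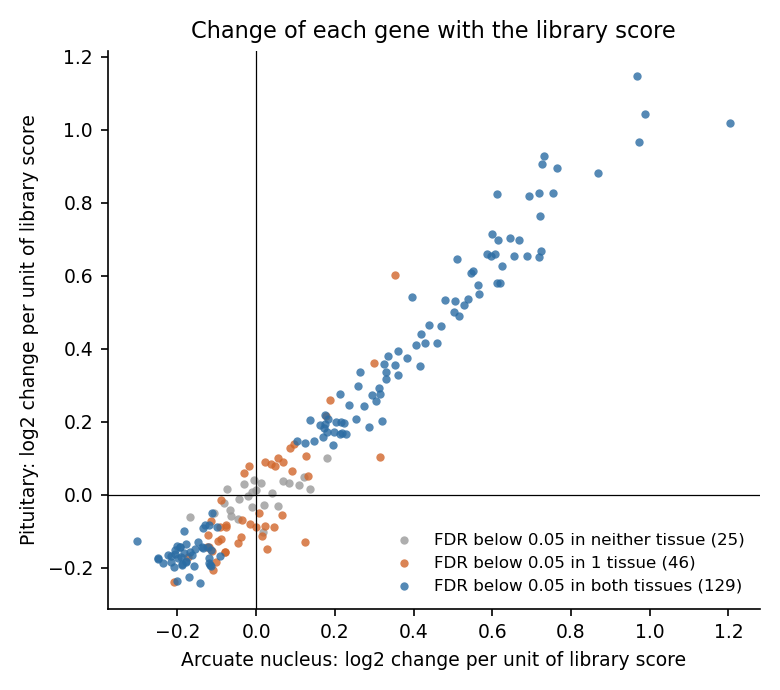
Slope of each of the 200 genes on the library score in the arcuate nucleus (x axis) and the anterior pituitary (y axis), as log2 change per unit of score within diets. Points are genes coloured by whether the slope had an FDR below 0.05 in neither, 1 or both tissues; the 129 called in both tissues lie in the upper right (85) and lower left (44).

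In CPM the same split was visible between the libraries of low score and the others. In the ARC, with 2 such libraries against 18, 78 members lay below every other library and 17 above, against 38% and 16.4% of all genes. In the pituitary, with 5 against 14, the numbers were 75 and 25, against 33.6% and 26.2% of all genes. More than 4-fold lower mean CPM was found for 54 members in the ARC, against 23.5% of all genes, and for 51 in the pituitary, against 19.6%. Of these genes 49 were more than 4-fold lower in both tissues, and the share of all genes lower in both is not given. Nearly all genes called on the score shared a direction, so the overlap is not read as a trait of the members. The 49 made up 17 of the first 50 genes by ratio and 32 of the other 150. No member was more than 4-fold higher in these libraries, against 0.122% and 0.0278% of all genes.

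Examples chosen after their values were seen show the range. ENSBTAG00000009868, ranked 26, had 0.923 and 1.21 CPM in the ARC libraries of low score and 18.6 to 84.4 CPM in the other ARC libraries. In the pituitary it had 0.182 to 1.02 CPM in the 5 libraries of low score and 20.8 to 60.7 CPM in the others. ENSBTAG00000008932, ranked 195, had 0 to 0.127 CPM against 3.98 to 29.5 CPM in the ARC, and 0 to 0.303 CPM against 3.896 to 15.1 CPM in the pituitary. Neither gene had any overlap. ENSBTAG00000019137, ranked 111, ran the other way in the pituitary, with 42.99 to 83.1 CPM in the libraries of low score and 15.1 to 32.6 CPM in the others. In the ARC its 25.8 and 51.1 CPM in those libraries lay within the 3.87 to 54.5 CPM of the rest. ENSBTAG00000039046, ranked 178, also fell with the score in the pituitary, with 6.79 to 33.7 CPM in the libraries of low score and 3.72 to 17.3 CPM in the others, and these ranges overlapped.

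**Figure D4:**
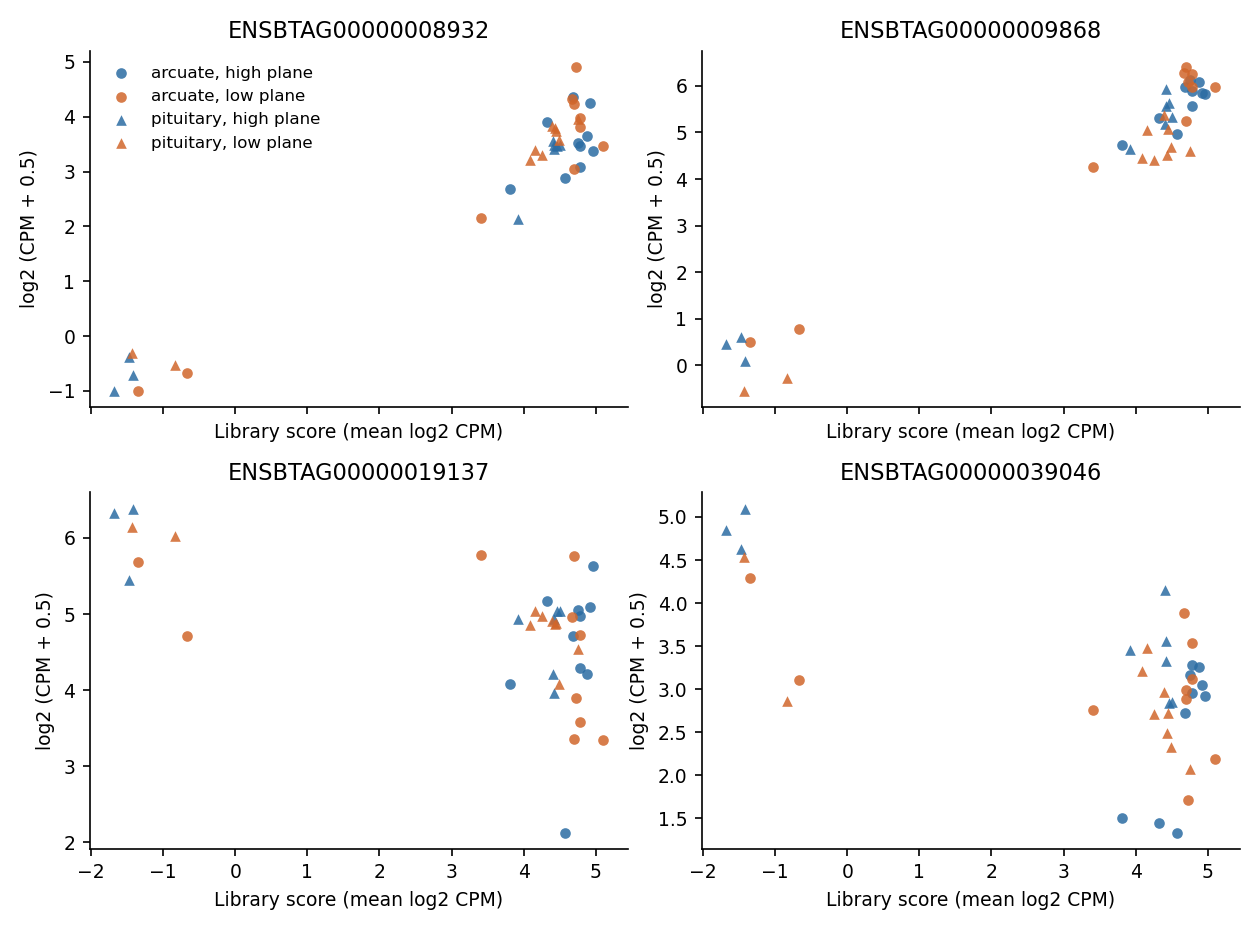
Level of 4 of the genes, as log2 (CPM + 0.5), against the library score (mean log2 CPM of 200 other genes) in each arcuate nucleus and pituitary library. Circles are ARC libraries and triangles pituitary libraries, blue for the high and orange for the low plane; the upper genes were at most 1.21 CPM in the 7 libraries of low score and at least 3.896 CPM in all others, and the lower genes had their highest values, 83.1 and 33.7 CPM, in a library of low score.

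The spread between libraries of a group followed these libraries too. The median SD of a member's log2 (CPM + 0.5) was 0.394 in the high plane ARC, which has no library of low score, and 0.712 in the low plane ARC, which has 2. Without those 2 it was 0.363. In the pituitary it was 0.646 on the high plane and 0.512 on the low plane, and 0.288 and 0.267 without the libraries of low score. Genes with a mean of at least 3.5 CPM had medians of 0.259 and 0.516 in the ARC and 0.583 and 0.476 in the pituitary, over all libraries and in the same order of diets. Without the libraries of low score their medians were 0.267 in the low plane ARC, and 0.192 and 0.205 in the pituitary. In each group the members' median was the higher, with and without those libraries.

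Between the diets, no member was called in the ARC. This comparison is tied to the choice too, because its high plane libraries served the rule. The rule favours genes that happened to be high in them, and so lower on the low plane. Of the 200 genes 0 had an FDR below 0.05 in edgeR, as did 0 of all 14757 genes tested (0%), and DESeq2 also called 0 members, where it called 0.00678% of all genes. At an unadjusted p below 0.05 there were 18 members, all higher on the low plane. That is 9.0% of the members against 9.92% of all genes in either direction, and no split of all genes by direction is given. Without the 2 libraries of low score, both on the low plane, 5 members passed that limit and 0 were called. With the score as a covariate the numbers were 4 and 0. The share of all genes at the unadjusted limit is not given for either fit. The median log2 fold change of the members was 0.03, against -0.01 for all genes.

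The member with the smallest p-value in the ARC was ENSBTAG00000019028. It had 13.98 to 28.2 CPM on the high plane with a median of 20.8, and 18.5 to 46.8 CPM on the low plane with a median of 29.99. The ranges overlapped, and the highest low plane values, 41.96 and 46.8 CPM, belonged to the libraries of low score. The means were 21.03 ± 4.50 and 31.1 ± 8.46 CPM (SD, n = 10 each), a log2 fold change of 0.65 (SE 0.20, FDR 0.4771 by edgeR). Without the libraries of low score the log2 fold change was 0.37 (SE 0.14, FDR 0.9999 by edgeR). With the score as a covariate it was 0.34 (SE 0.14, FDR 0.9999). The pituitary means of this gene were 40.9 ± 16.6 CPM (SD, n = 9) for the high plane and 53.8 ± 27.1 CPM (SD, n = 10) for the low plane.

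In the anterior pituitary 0 of the 200 members were called between the diets by edgeR, where 0.562% of all genes were. The high plane pituitary libraries served the rule as well. All diet values of members in this tissue are therefore tied to the choice, which favours lower levels on the low plane. At an unadjusted p below 0.05 there were 19 members, 8 higher and 11 lower on the low plane, which is 9.5% of the members against 7.42% of all genes. DESeq2 called 1 member higher and 1 lower, where it called 0.541% and 1.25% of all genes. Without the 5 libraries of low score, edgeR called 9 members higher and 6 lower, where 2.77% and 2.95% of all genes were called. With the score as a covariate it called 12 higher and 9 lower, where 4.97% and 4.04% of all genes were. Of these calls 13 were made in both fits with the same sign. In both fits the members were called at a rate close to that of all genes.

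ENSBTAG00000004515 had the smallest p-value in the pituitary. It had 22.3 to 40.3 CPM on the high plane with a median of 31.6, and 17.5 to 31.1 CPM on the low plane with a median of 24.1. The ranges overlapped in part, and the log2 fold change was -0.49 (SE 0.13, FDR 0.1097 by edgeR). It was -0.55 (SE 0.10, FDR 0.005608) without the libraries of low score and -0.50 in DESeq2 (FDR 0.01306). In the ARC the gene had 19.5 ± 4.65 CPM on the high plane and 22.9 ± 5.25 CPM on the low plane (SD, n = 10 each).

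Without the libraries of low score, which leaves 6 high plane and 8 low plane pituitary libraries, ENSBTAG00000020987 had 17.5 to 28.2 CPM on the high plane and 33.5 to 54.2 CPM on the low plane. These ranges did not overlap, and its log2 fold change was 0.83 (SE 0.10, FDR 0.0005849 by edgeR). ENSBTAG00000019385, ranked 21, had 74.7 to 123 CPM and 122 to 194 CPM, a log2 fold change of 0.71 (SE 0.13, FDR 0.005754). ENSBTAG00000038326, ranked 13, was lower on the low plane, with 95.4 to 304 CPM against 53.1 to 106 CPM, a log2 fold change of -0.91 (SE 0.21, FDR 0.02086). None of the 3 was called in the edgeR fit over all pituitary libraries, and the fit without the libraries of low score was chosen after seeing the data.

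The diet effect itself was compared between the pituitary and the ARC with an interaction term in 1 edgeR fit over all groups. It was called for 0 of the 200 members, where 0.212% of all 16476 genes were called. At an unadjusted p below 0.05 there were 26 members, or 13% against 19.5% of all genes in either direction. Of the 26, 4 were more positive and 22 more negative in the pituitary, and no such split of all genes is given. DESeq2 called 1 member, where it called 0.886% of all genes. The high plane ARC and pituitary libraries of this comparison are those in which the rule held each gene within 4-fold, so the values are a description. Without the libraries of low score 0 members were called, where 0.290% of all genes were. There 15 members passed the unadjusted limit, for which no share of all genes is given. The smallest p-value was that of ENSBTAG00000047486, described above as leaning to the ARC. It had 2.06 to 30.03 CPM in the high plane ARC with a median of 7.01, and 1.95 to 14.3 CPM in the high plane pituitary with a median of 3.94. Between high and low plane its mean moved from 10.9 to 25.8 CPM in the ARC and from 5.23 to 2.19 CPM in the pituitary. The difference of the effects was -2.67 on the log2 scale (SE 0.70, FDR 0.0751 by edgeR), and -2.63 in DESeq2 (FDR 0.0396).

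In the testes the members are near the lower end of measurement. Of the 200 genes 149 passed the edgeR filter on low counts there. The other 51 had mean levels of at most 0.700 CPM on the high plane and 0.903 CPM on the low plane, and include 13 of the first 50 genes by ratio. Of the 149, 21 were higher on the low plane and 0 lower in edgeR, where 4.75% and 2.16% of all genes were called. At an unadjusted p below 0.05 there were 55 members, 54 of them higher. That is 36.9% against 30.2% of all genes in either direction, and no split of all genes by direction is given. The log2 fold changes of the 21 ran from 0.57 to 1.78 with a median of 1.11, and their FDR from 0.01799 to 0.04974. For 2 members every low plane library lay above every high plane library, against 0.183% of all genes.

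This comparison is tied to the choice of the genes, because the testes means of the same high plane libraries were the divisor of the ratio, which favours genes that happened to be low in them. When the rule was applied to the low plane libraries, 152 of the genes so chosen were tested, and 8 of these were called higher on the low plane and 2 lower. With the mean of both diets in the rule, which keeps 173 of the 200 genes, 147 were tested and 9 were called higher and 0 lower. The fit is the same, so both counts stand against the 4.75% and 2.16% of all genes.

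The diets also differ in the testes in their libraries of low score, which were 5 of 8 on the low plane and 1 of 10 on the high plane. Without them, 9 high plane and 3 low plane libraries were left and 0 members were called, as were 0 of all 15935 genes (0%). Of the 159 members tested, 33 had an unadjusted p below 0.05, a limit for which no share of all genes is given. The 21 genes all stayed positive, with log2 fold changes from 0.16 to 1.17 and a median of 0.57. With the score as a covariate 13 members were called higher and 2 lower, where 1.77% and 4.44% of all genes were, and 7 of the 21 genes were among those called. With the log2 total count as a covariate 0 were called, where 0% of all genes were called higher and 0.0131% lower. DESeq2 called 30 higher and 0 lower, where it called 8.37% and 4.51% of all genes.

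The count also turned on single libraries. It was 10 without A48, 11 without B32, 13 without B12, 8 without B5, 13 without B49, 8 without B38, 9 without B21, 7 without B2 and 7 without B20. It was 35 without B42, 36 without B31 and 34 without B7. Of these, B42 is the high plane library of low score, and B31 and B7 are low plane libraries without a low score. The share of all genes called in these fits is not given, so the counts are not a result about the members alone.

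ENSBTAG00000013422, ranked 31, had the smallest p-value among the members in the testes. It had 1.52 to 3.53 CPM on the high plane with a median of 2.53, and 3.30 to 7.78 CPM on the low plane with a median of 5.53. The ranges overlapped slightly, and the 5 low plane libraries of low score held the upper values, at 5.03 to 7.78 CPM against 3.30 to 4.01 CPM in the other 3. The high plane library of low score, B42, had 2.20 CPM. The log2 fold change was 1.12 (SE 0.22, FDR 0.01799 by edgeR), and 0.41 (FDR 0.3716) without the libraries of low score. With the score as a covariate it was 0.69 (FDR 0.04814), and with the log2 total count 0.82 (FDR 0.2402). In the ARC this gene had 118 ± 41.9 CPM on the high plane and 120.4 ± 22.04 CPM on the low plane (SD, n = 10 each), and in the pituitary 88.2 ± 21.2 CPM (n = 9) and 75.2 ± 14.9 CPM (n = 10).

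ENSBTAG00000003827, the last of the 200 by ratio, did not overlap between the diets in the testes. It had 3.22 to 9.93 CPM on the high plane with a median of 8.52, and 10.3 to 27.3 CPM on the low plane with a median of 17.5. The log2 fold change was 1.10 (SE 0.22, FDR 0.02042 by edgeR), and 0.64 (FDR 0.2113) without the libraries of low score. In the pituitary the libraries of low score also held its upper values, 88.6 to 123 CPM on the high plane against 44.6 to 51.4 CPM in the others. The testes log2 fold change was 0.76 (FDR 0.03558) with the score as a covariate and 0.74 (FDR 0.2519) with the log2 total count as one. Both genes were thus called with the score in the model, and not called without the libraries of low score or with the total count.

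**Figure D5:**
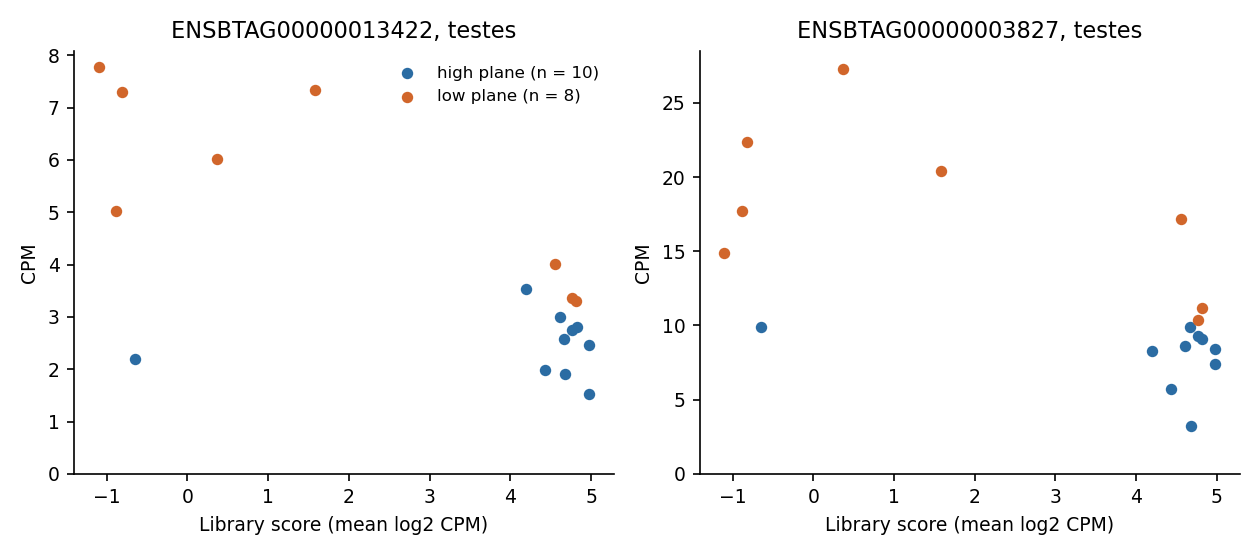
CPM of the 2 members with the smallest p-values for diet in the testes, ENSBTAG00000013422 (left) and ENSBTAG00000003827 (right), against the library score, in 10 high plane (blue) and 8 low plane (orange) testes libraries. Each point is 1 library; the 5 low plane libraries with a score below 2 hold most of the higher values, and the 3 low plane libraries above it reach 3.30 to 4.01 CPM and 10.3 to 17.2 CPM.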

How the data were processed

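For each of 57 libraries the authors deposited whole-number counts of reads on 24616 Ensembl genes, without normalization. The submitters' processing notes name CASAVA 1.4, STAR, HTSeq and edgeR, and their settings and the annotation release are not given in the sources used here. Groups follow the labelled tissue and plane of nutrition. The study's methods give 3 tissues from each calf, so the tissues share calves. The labels tie no library to a calf, so no block could be set and tests between tissues treat the libraries as independent.

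CPM was computed on library totals. Tests used edgeR 4.0.16 in R 4.3.3 (default filter, TMM, quasi-likelihood test, Benjamini-Hochberg adjustment over all genes tested, threshold 0.05), within a tissue for diet and over the low plane libraries of all tissues for tissue. Alternatives were DESeq2 1.42.0, no filter, a filter of CPM above 1, library totals without TMM, covariates, 1 fit over all tissues and leaving out each library. The library score used log2 CPM (prior count 2), 200 genes and scaling on 500 genes. Scripts were tested on simulated counts with the real library sizes and a fixed dispersion. No simulated library stood apart from its group, so that test does not cover the libraries of low score.

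The members and lists were chosen with earlier results of these data known. Genes named are those with the largest ratio, and in each comparison those with the smallest p-value or, for ARC against pituitary, the largest fold change. Outside this rule, chosen after values were seen, are the 4 examples set against the library score and the genes with the smallest p-values of the pituitary fit without libraries of low score. At most 2 identifiers in each direction and comparison are printed, because 0 identifiers matched a name. For that reason the planned gene lists, cell type markers and promoter motifs were not analysed here, nor were genes named by abundance.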

Additional observations from a re-analysis of the deposited data

Results flagged for a closer look

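The highest and lowest library of a group were each set against the gap to the nearest neighbour in 114 groups of values. These were the CPM of 18 genes (those named by the rule and the 4 examples set against the library score) and the share of reads on the members, each in 6 groups of libraries. The 3 genes named only in the pituitary fit without libraries of low score were not among them. In 8 of them 1 library stood apart by Dixon's 95% limit, where chance alone gives about 1 in 20 groups, or 5.7. Of the 8, 3 lay in libraries of low score. These were ENSBTAG00000012182 in the high plane pituitary, at 930 CPM in A57 with the next library at 746 CPM, ENSBTAG00000013422 in the low plane pituitary, at 114 CPM in A47 with the next at 83.4 CPM, and ENSBTAG00000039046 in the low plane pituitary, at 22.6 CPM in A47 with the next at 10.6 CPM.

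The other 5 lay in libraries without a low score. ENSBTAG00000011782 had 10.9 CPM in the high plane testes library B49, with the next at 4.26 CPM. ENSBTAG00000001516 had 135 CPM in the low plane ARC library C43, with the next at 63.4 CPM. ENSBTAG00000047486 stood apart in 3 groups, at 14.3 CPM in the high plane pituitary library A36 (next 8.19 CPM), 6.08 CPM in the low plane pituitary library A19 (next 3.29 CPM) and 0.199 CPM in the high plane testes library B5 (next 0.0668 CPM). The cause was not tested for any of the 8.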

How the results depend on the processing

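The 200 calls of each tissue over the testes in low plane calves were made under every alternative run for them, as were 0 calls for diet in the ARC. Scaling by library totals in place of TMM shifted the median of all genes by -0.13 for ARC over testes, -0.26 for pituitary over testes, 0.14 for ARC over pituitary and 0.11 for the diet effect of pituitary minus ARC, and turned the members' median for the last from -0.08 to 0.05. ARC against pituitary gave 59 members higher in the pituitary without the libraries of low score, in place of 30. In the pituitary the diet called 1 member higher and 1 lower with DESeq2, 9 and 6 without the libraries of low score, and 12 and 9 with the score as covariate. DESeq2 called 1 interaction. In the testes the members called higher, in place of 21, were 37 in 1 fit over all tissues and 34 with library totals. They were 13 with the score, 0 with the log2 total count and 0 without the libraries of low score. With library totals 2025 of all genes tested were called higher, in place of 727, so the rise was not the members' alone. For the fit over all tissues no share of all genes is given. The genes chosen from low plane libraries gave 8 called higher, and those chosen from both planes 9. Members lower were 2 with the score and 2 for the list from low plane libraries, in place of 0. Leaving out 1 library gave 7 to 36 higher and 0 to 1 lower in the testes, and 0 in the ARC and the pituitary. No share of all genes is given for these fits. A 2-fold limit kept 132 of the 200 genes. In the ARC 19 members fell with the score under library totals, in place of 46. The cause was not tested. The fits without libraries of low score, the other lists and the slopes on the score were chosen after seeing the data.

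Testes levels under about 1 CPM rest on few reads, and 51 members were not tested there. The replicates are separate libraries, and p-values weigh a difference between groups against the spread between libraries. Between tissues the libraries share calves and were treated as independent. Genes that share reads with a close copy cannot be recognised without names. No paired analysis was possible because the library numbers are unique and tie no library to a calf.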
